A study of Mus musculus with 7 samples.

Results

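The genes described here encode the proteins of the cytoplasmic ribosome. They were chosen by name, as all genes of the deposited list whose symbol starts with Rpl or Rps and a digit, plus Rpsa, Rplp0, Rplp1 and Rplp2. Ribosomal protein S6 kinases and names containing -ps were left out. Such names are given to pseudogenes, though the annotation used here types some of these genes as protein-coding. The rule took 86 of 32285 genes. Of these, 77 were core members (31 of the small subunit, 43 of the large subunit and 3 of the stalk) and 9 were paralogs or other genes.

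Liver cells of mice were sequenced in 7 droplet libraries, with a kit that reads the 3′ ends of transcripts and tags each captured molecule with a unique molecular identifier (UMI). The labels describe all 7 as liver of a hepatoblastoma model and give neither groups, replicates nor ages, so values are given for each library and no groups were compared. The study worked with healthy mouse livers and with tumors of a line that combines Alb-Cre with CAG-Myc, called ABC-Myc, in which Cre under the albumin promoter switches on Myc in the hepatocyte lineage, and its text lists NEJ634, NEJ687, NEJ709 and NEJ723 among the tumors. The description of NEJ709 carries the name of NEJ634, and these libraries shared 68 cell barcodes where 87.2 were expected by chance.

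A ribosome has a small subunit, which reads the messenger RNA, and a large subunit, which joins the amino acids. Each ribosomal protein is needed in about one copy per ribosome, except for the stalk proteins of the large subunit, which recruit the elongation factors. Ribosomal protein messenger RNAs begin with a tract of pyrimidines, the terminal oligopyrimidine motif, through which the mTORC1 pathway controls their translation. Myc raises the production of ribosomes, and growing cells make more of them than cells at the end of their differentiation.

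Pyrimidine runs near annotated starts were searched in the RefSeq promoter windows (GRCm38.p6, 250 bases before to 50 after each start). The windows held 66 of the 86 members and 57 of the 77 core members. A run of at least 8 C or T letters within 25 bases of a start, on either side, was found for 30 of these 57 core members (52.6%). It was found for 17 of 69 genes of mitochondrial ribosomal proteins (24.6%) and for 22.3% of 27025 genes with a window. The windows of 7 members that held a run are shown, because the results below name these members. Rps9 and Rps27 were over-represented in neutrophil-like cells and Rpl10a was under-represented there. Rpl31 and Rps6 stood out in other classes, and Rps27l and Rpl22l1 are paralogs. Each line is written 5′ to 3′ on the strand of the gene, with the part of the run that lies within 25 bases of the start in capitals. Where runs were equally long the first is marked, and Rps27l holds another of 9 letters after it.
Rps9, chr7:3704024-3704053, + strand: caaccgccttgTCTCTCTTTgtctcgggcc
Rps27, chr3:90213632-90213661, - strand: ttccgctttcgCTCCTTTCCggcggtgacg
Rpl10a, chr17:28328571-28328600, + strand: aaagcgctctgCCTTCTTTccggtttccgc
Rpl31, chr1:39367826-39367855, + strand: cgccacaCCTCTTCCTCCTCgcctccccgt
Rps6, chr4:86857349-86857378, - strand: ggaagtcgggCCTCTTTTTCgtgacgcctc
Rps27l, chr9:66946061-66946090, + strand: ccaCTCCTCTCCactcctccccgccgcctc
Rpl22l1, chr3:28805499-28805528, + strand: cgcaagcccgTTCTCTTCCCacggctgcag
The run was 9 letters long in Rps9, Rps27 and Rps27l, 10 in Rps6 and Rpl22l1 and 13 in Rpl31. It was 8 in Rpl10a, where it goes on for 2 more letters past the searched bases. Counted from the annotated start, its first base was at -6 in Rps9, -2 in Rps27, -1 in Rps6 and 2 in Rpl22l1. It was at 18 in Rpl10a, -18 in Rpl31 and -22 in Rps27l, so the runs of Rpl31 and Rps27l lay before the start. Whether these runs begin the messenger RNA was not tested. Windows without a run are not shown, so no relation between the run and the shifts in neutrophil-like cells can be read from those shown. Other motifs were searched on both strands of the whole window. The letters CCGGAAG, bound by ETS factors, occurred in 42.1% of core members, 37.7% of mitochondrial ribosomal protein genes and 9.93% of all genes. The E-box CACGTG, bound by Myc, occurred in 10.5%, 7.25% and 8.09%. AAGATGGC, bound by YY1, occurred in 8.77%, 17.4% and 3.19%, and TATAAA in 10.5%, 7.25% and 15.7%.

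All 86 members were found by identifier and name in GENCODE M21 (GRCm38), on 19 chromosomes, with 4 members on chromosome X. The last 300 bases of 74 members, 69 of them core members, shared a stretch of 60 bases with another annotated gene, mostly a processed pseudogene. For 15 core members the other gene was protein-coding. Single-gene values of such members are uncertain to the extent that the counting split reads between copies. Reads assigned to pseudogenes are missing from the summed share too, and how many there were was not tested.

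The matrices held 40214395 to 132485391 UMIs per library. Calling of cells left 72677 cells, 6716 to 17022 per library, with a median of 2108.5 to 4616 UMIs per cell. Clustering without ribosomal protein genes gave 37 clusters. Fixed marker genes named 25 of them in 15 classes, and 33.1% of cells stayed unnamed. A cluster of 12971 barcodes, 98.1% of them from NEJ709, stayed unnamed because its profile followed the ambient profile of that library (r = 0.985). NEJ654, NEJ677 and NEJ687 shared 96 to 180 cell barcodes per pair, where 19.9 to 21.03 were expected by chance, and NEJ709 and NEJ723 shared 98 where 63.7 were expected. A cluster of 2699 cells led by genes of the exocrine pancreas, in which haemoglobin made up 85.8% to 92.0% of UMIs, stayed unnamed too. Leaving out barcodes found in several libraries left the count of libraries for each of the 7 class pairs below as it was.

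Ribosomal protein genes made up a large part of all UMIs in each library. Their share over all cells was 11.2% in NEJ638, 13.6% in NEJ709, 14.7% in NEJ677, 15.98% in NEJ654, 18.1% in NEJ687, 18.2% in NEJ634 and 20.3% in NEJ723. The exact 95% intervals, which cover counting error only, were narrow, for example 15.97% to 15.998% in NEJ654. Haemoglobin took 4.64% to 26.6% of the UMIs and mitochondrially encoded genes 1.38% to 9.76%. With both left out of the total, the share was 14.3% in NEJ638, 17.4% in NEJ677, 17.9% in NEJ654, 20.03% in NEJ634, 21.4% in NEJ709, 23.5% in NEJ687 and 27.8% in NEJ723. NEJ638 and NEJ723 thus stood at the ends of both orders, and NEJ709 moved from the second lowest to the third highest place. Most UMIs of NEJ709 (39006313, in 12730 of its 14004 cells) came from the unnamed ambient-like cluster, so its value mainly describes those barcodes. The ambient profile was the sum of the barcodes ranked 45000 to 90000 by UMIs. The richest of them held 952 UMIs in NEJ634 and 90 to 460 elsewhere. In NEJ634, 68463 barcodes below the threshold of the cell calling held at least 500 UMIs, and 20000 of these were tested. Most barcodes of its ambient profile were therefore of the size asked of a cell, and whether they held cells was not tested. The ambient profile carried a lower ribosomal protein share than the cells in 6 libraries (5.57% to 14.99%) and a higher one in NEJ687 (19.9%). Without haemoglobin and mitochondrial UMIs it was 22.5% in NEJ709, above the cells there, 23.51% in NEJ687 beside 23.47% in the cells, and 11.8% to 18.0% in the other 5 libraries, below their cells. The 5.57% of NEJ638 became 13.2%, with mitochondrial genes at 56.5% of that profile.

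The ratio of small to large subunit genes varied less between libraries than between classes. The UMIs of small subunit genes divided by those of large subunit genes ranged from 0.895 to 0.923 over the libraries. Over 13 classes, the median of this ratio ranged from 0.833 in hepatocyte-lineage-like to 0.966 in T/NK-like cells. Single values reached from 0.735 in hepatocyte-lineage-like cells of NEJ638 to 1.009 in B-like cells of NEJ709.

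The level of single members was compared over all cells as counts per 1000000 UMIs (CPM). The kit counts the 3′ end of a transcript once, so no correction for length was made. Every core member was detected in every library, with at least 5700 UMIs. The median CPM over libraries was 2248 for the median core member, 64 of the 77 stood above 1000, and the highest was 13.5 times the lowest. The 10 highest members supplied 22.4% of all member UMIs and the 9 paralogs and other genes 1.18%.

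Rps29, a small zinc-binding protein of the small subunit, had the highest median over libraries. Its level was 2647 CPM in NEJ687, 6942 CPM in NEJ638 and 5233 CPM in the median library. Rpl41, the shortest protein of the ribosome, followed at 4563 CPM (3652 to 6010), then Rps24 at 3993, Rpl37a at 3908 and Rps20 at 3901. The ranges of these 5 members over libraries overlapped, and Rpl41 was above Rps29 in 4 of 7 libraries, so their order is not separated by the spread. The lowest core members were Rpl23a at 389 CPM (265 to 575), Rpl5 at 458, Rpl4 at 484, Rpl31 at 486 and Rps15 at 516. Their ranges overlapped too, but Rpl23a was below the other 4 in 7 of 7 libraries.

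**Figure D1:**
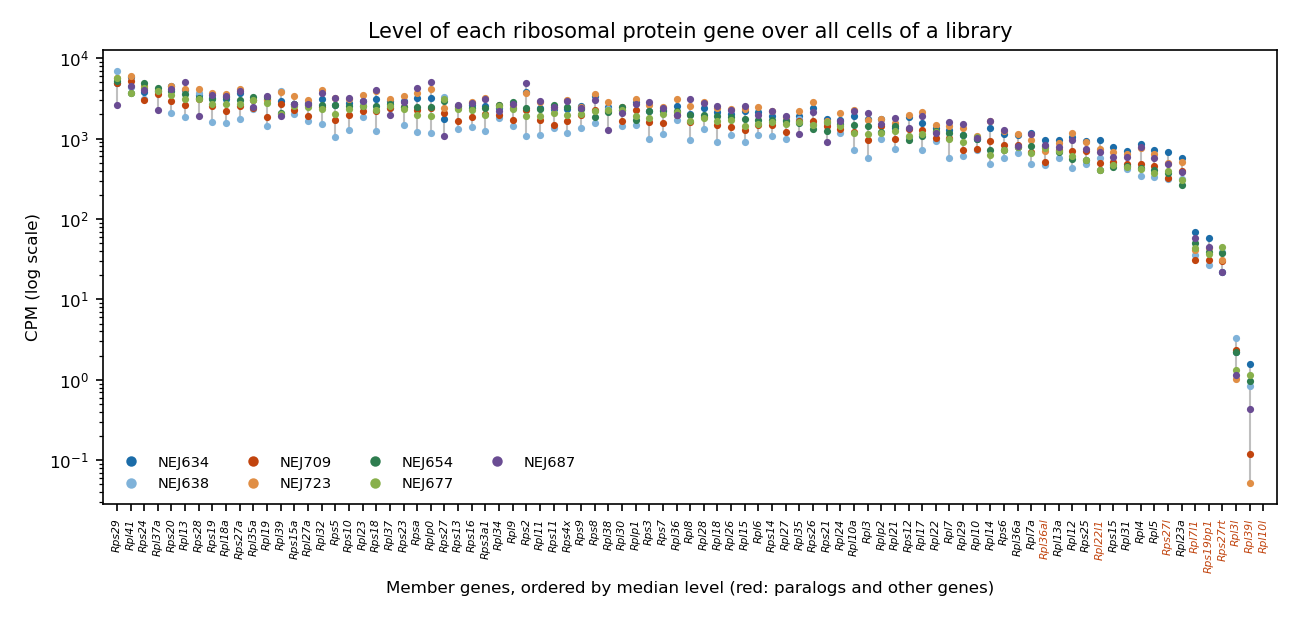
Level of 85 of the 86 members over all cells, in CPM on a log axis, ordered by the median over libraries; each dot is 1 library and grey lines span the libraries. Core members lie between about the level of Rpl23a (median 389) and that of Rps29 (median 5233), the paralogs and other genes (red names) lie at the lower end, and Rpl10l has no dot because it had 0 UMIs.

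Cell classes differed more in the ribosomal protein share than libraries did. The highest share was found in T/NK-like cells (median 28.5% over 7 libraries, 25.4% to 38.6%), followed by B-like cells (26.5%, 20.5% to 30.5%). Conventional dendritic-like cells had 24.97% (6 libraries), basophil/mast-like cells 24.5% (4) and plasmacytoid dendritic-like cells 21.5% (6). Monocyte-like cells had 18.7% (15.5% to 22.2%), neutrophil precursor-like cells 16.2% (5 libraries), endothelial-like cells 15.3% (6), macrophage-like cells 14.6% (7) and mesenchymal-like cells 14.5% (5). Hepatocyte-lineage-like cells had 14.7% (6 libraries), with the widest range of any class, from 7.36% to 23.5%. Erythroid-like cells had 14.8% of all UMIs (5 libraries), but a median of 45.9% of their UMIs was haemoglobin, and with haemoglobin and mitochondrial genes left out the share was 26.2%. Neutrophil-like cells had the lowest share, 4.33% (3.53% to 5.96%). Cholangiocyte-like cells were named in 2 libraries (18.5% and 29.5%) and megakaryocyte-like cells in 3 (10.2% to 13.1%).

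**Figure D2:**
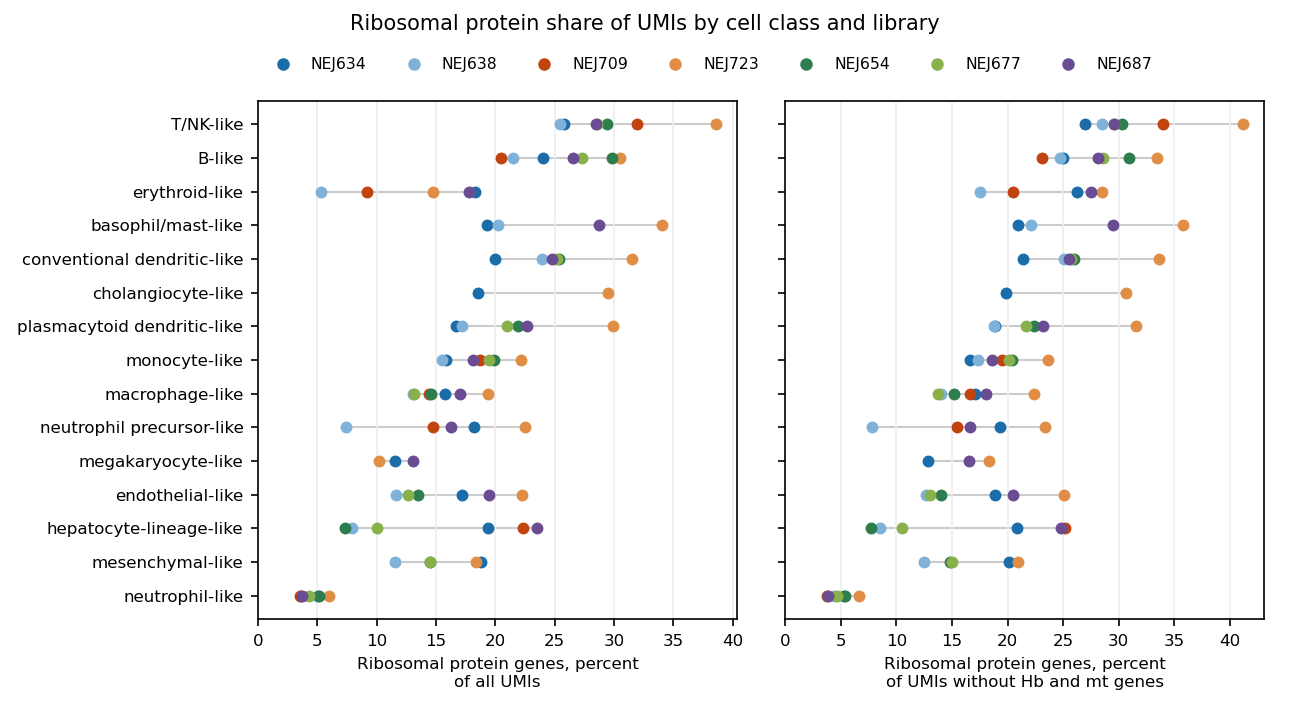
Ribosomal protein genes as a percentage of all UMIs (left) and of UMIs without haemoglobin (Hb) and mitochondrially encoded (mt) genes (right), by cell class; each dot is the summed cells of 1 library and grey lines span the libraries. Neutrophil-like cells lie at the low end in every library (3.53% to 5.96% on the left) and NEJ723 lies at the high end of most classes.

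The highest place was mostly that of one library. NEJ723 had the highest share in 10 of the 12 classes it held, and in 12 of 12 with haemoglobin and mitochondrial UMIs left out. The B-like class held a cluster of 511 cells led by Vpreb3, Igll1 and Vpreb1, and 67.1% of them came from NEJ723. The B-like class is thus not made of the same clusters in equal parts in all libraries. NEJ638 had the lowest share in 7 of 13 classes, and in 5 of 13 with those UMIs left out, while NEJ634 was lowest in 3 of its 13 classes and highest in 2.

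T/NK-like cells were compared with neutrophil-like cells within each library. The share in T/NK-like cells was 25.4% in NEJ638, 25.8% in NEJ634, 28.5% in NEJ677, 28.5% in NEJ687, 29.4% in NEJ654, 32.0% in NEJ709 and 38.6% in NEJ723. In neutrophil-like cells it was 3.62%, 5.05%, 4.33%, 3.71%, 5.13%, 3.53% and 5.96% in the same order. It was therefore higher in T/NK-like cells in 7 of 7 libraries, by 5.11 to 9.06 times (median 6.60), and no intervals overlapped. Single cells gave the same picture: the 5th percentile of T/NK-like cells lay above the 95th percentile of neutrophil-like cells in 7 of 7 libraries. B-like cells exceeded neutrophil-like cells in 7 of 7 libraries as well (median 5.81 times, 4.75 to 7.14). A neutrophil-like cell held 36.5 to 212 ribosomal protein UMIs on average and a T/NK-like cell 473 to 2594, beside 1008 to 3918 and 1858 to 8115 UMIs in all. The neutrophil-like share lay below that of the ambient profile in 7 of 7 libraries. With the ambient profile subtracted, the median neutrophil-like share was 2.81%. The subtraction took the highest ambient fraction that haemoglobin in T/NK-like cells allowed and cut off negative counts, so it may take too much.

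Nearly all members took part in this difference. Counted with haemoglobin and mitochondrial UMIs left out, 77 of 84 members of at least 10 CPM were over 2-fold higher in T/NK-like than in neutrophil-like cells in every library, against 20.2% of all 7119 genes at that level. Among core members the count was 75 of 77, with Rps9 and Rps25 missing. The median log2 ratio was 2.73 for core members, 1.44 for 70 mitochondrial ribosomal protein genes and 0.60 for all genes. For 15 other genes of terminal oligopyrimidine mRNAs and translation factors, called other translation genes below, it was 2.42. That list was thus chosen in part for the motif of the ribosomal protein messenger RNAs. In the other direction 1 member, Rpl3l, met the rule, against 11.4% of all genes, but it reached the 10 CPM through neutrophil-like cells alone, so its count is no result. For B-like over neutrophil-like cells 79 of 84 members were called (21.3% of all genes), and of the core members all but Rps9. The same holds for neutrophil-like over B-like cells, where Rpl3l alone met the rule (10.4% of all genes).

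The members were not lower by one factor. The log2 ratio of T/NK-like to neutrophil-like cells was largest for Rpsa, a small subunit protein that also serves as a laminin receptor (4.15, 3.02 to 4.33), Rpl12 (3.98) and Rpl10a (3.94). It was smallest for Rps9 (0.85, 0.36 to 1.01), Rps27a, which is made as a fusion with ubiquitin (1.48), and Rps25 (1.59).

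T/NK-like cells also stood above cells of the liver itself. Their share was higher than that of macrophage-like cells in 7 of 7 libraries (median 1.99 times, 1.64 to 2.22) and higher than that of hepatocyte-lineage-like cells in 6 of 6 (2.14 times, 1.21 to 3.997). B-like cells lay below T/NK-like cells in 6 of 7 libraries and above them in 1 (median 0.9297 times, 0.641 to 1.01). The T/NK-like class held a cluster led by T cell genes (Trbc2, Cd3d) and one led by cytotoxic genes (Gzma, Xcl1, Ccl5). The share was higher in the first in 6 of 6 libraries, by 1.05 to 1.71 times as a share of all UMIs. Leading genes of the second included Klrb1c, an NK cell gene, and Cd3g, a T cell gene, so the pair does not set T cells against NK cells.

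Gene by gene, few members passed the 2-fold limit in every library in these pairs. Over macrophage-like cells, T/NK-like cells were higher in 8 of 83 members (7.36% of all genes): Rps27, Rps27rt, Rplp0, Rps15a, Rps7, Rps24, Rpl8 and Rps4x. The count in the other direction was 0 members (12.3% of all genes). Over hepatocyte-lineage-like cells 2 of 83 passed, Rps27 and Rps27rt (15.1% of all genes), and Rps27l and Rpl7l1 passed in the other direction (16.2%). The median core log2 ratio was 0.92 over macrophage-like and 0.93 over hepatocyte-lineage-like cells, where the medians of all genes were -0.10 and 0.07. Mitochondrial ribosomal protein genes went the other way, with medians of -0.52 and -1.45. Between B-like and T/NK-like cells 0 members passed in either direction (3.94% and 4.16% of all genes).

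Alb, the albumin gene, had 3106 to 54311 CPM in the hepatocyte-lineage-like cells of the 6 libraries, beside 1354 CPM in the median ambient profile. These cells differed between libraries in both their ribosomal protein share and their clusters. The share was 19.4% in NEJ634, 22.3% in NEJ709 and 23.5% in NEJ687, where most of these cells (37 in NEJ709) lay in a cluster led by Fabp6, H19, Igf2 and Afp, genes of the fetal liver among them. It was 7.89% in NEJ638, 7.36% in NEJ654 and 10.0% in NEJ677, where most lay in 2 clusters led by Akr1c6, Mup3, Cyp2c29 and Serpina3k, which are genes of mature hepatocytes. The first 3 are among the libraries that the study's text lists as tumors and the second 3 are not, and no test between them was made because the labels give no groups. NEJ634 also held 108 cells in the cluster led by Serpina3k, with a share of 16.1%, against 5.66% to 7.74% in the same cluster of the other 3 libraries that held it. In the cluster led by Akr1c6, the 33 cells of NEJ687 had 20.01%, against 9.92% in NEJ654 and 12.6% in NEJ677. Those 33 cells held 665 UMIs each on average, against 2032 and 2836, their share was close to that of the NEJ687 ambient profile (19.9%), and these 3 libraries share barcodes, whose part in the value was not tested. The class is thus not made of the same clusters in all libraries.

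Endothelial-like cells had 11.7% in NEJ638, 12.6% in NEJ677, 13.5% in NEJ654, 17.1% in NEJ634, 19.5% in NEJ687 and 22.3% in NEJ723. Most of those of NEJ634 lay in a cluster led by Lyve1 and Fabp4, and most of those of the other libraries in clusters led by Ptprb and Clec4g, genes of the liver sinusoid. Their share exceeded that of hepatocyte-lineage-like cells in 3 of 5 libraries and lay below it in 2 (0.828 to 1.84 times). With stricter naming, chosen after the data were seen, the count was 5 of 5, so this order depends on which clusters take the name. The count of members higher in endothelial-like cells in every library was 0 (19.7% of all genes), and Rps27l was higher in hepatocyte-lineage-like cells (10.7%). Macrophage-like cells ranged from 13.04% in NEJ638 to 19.4% in NEJ723. Most lay in a cluster led by Marco and Cd5l in NEJ634, NEJ709, NEJ723 and NEJ687, and in one led by Folr2 and Clec4f, a Kupffer cell gene, in NEJ638, NEJ654 and NEJ677.

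The ribosomal protein share was lower in each later cluster of the neutrophil lineage. In the cluster led by Elane, Mpo and Prtn3, genes of the first granules that a neutrophil precursor makes, it was 21.1% in NEJ634, 28.7% in NEJ709, 29.7% in NEJ687 and 35.2% in NEJ723. In the cluster led by Ngp, Camp and Ltf, genes of later granules, it was 4.85% to 7.39% over 5 libraries. In neutrophil-like cells, led by Retnlg and Cxcr2, it was 3.53% to 5.96%. The first step was a drop in 4 of 4 libraries (2.98 to 6.11 times, without haemoglobin and mitochondrial UMIs) and the second in 5 of 5 (1.15 to 1.67 times). These are shares, with granule genes left in the total. Between the first 2 clusters, UMIs per cell rose in NEJ634 (3631 to 10150.5). They fell in NEJ709 (22361 to 12894.8), NEJ723 (17047.4 to 8177.5) and NEJ687 (17912.2 to 6926.61). In NEJ634 the lower share thus need not mean fewer ribosomal protein UMIs per cell. Mitochondrial ribosomal protein genes had 0.734% to 0.9895%, 0.211% to 0.294% and 0.196% to 0.321% of UMIs in the 3 clusters, and the other translation genes 1.53% to 1.88%, 0.359% to 0.507% and 0.366% to 0.614%, both without haemoglobin and mitochondrial UMIs. The value of the neutrophil precursor-like class (16.2%) is a mixture of its 2 clusters. It was 29.2% with stricter naming, chosen after the data were seen, 26.1% with doublets kept and 10.3% as a mean over cells.

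In the erythroid lineage, haemoglobin took up a growing part of the UMIs, so the share was read without it. It was 19.0% to 34.2% in the cluster led by Car1, Klf1 and Hemgn, genes of early red cell precursors, 10.3% to 20.3% in the cluster led by Slc4a1 and Trim10, and 7.40% to 16.6% in the cluster led by Alas2 and Bpgm. Haemoglobin made up 8.71% to 39.0% of UMIs in the first cluster, 49.5% to 59.6% in the second and 78.6% to 85.6% in the third. The value of the third cluster thus rests on a small remainder of its UMIs. The first step was a drop in 4 of 5 libraries, with NEJ638 (32 and 30 cells) as the exception. The second was a drop in 3 of 5 and a gain in 2. Against T/NK-like cells, the erythroid-like class as a whole was lower in 5 of 5 libraries on this scale (0.605 to 0.970 times). Of 83 members, Rps27l alone was higher in erythroid-like cells in every library (13.4% of all genes), and 0 were higher in T/NK-like cells (17% of all genes).

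**Figure D3:**
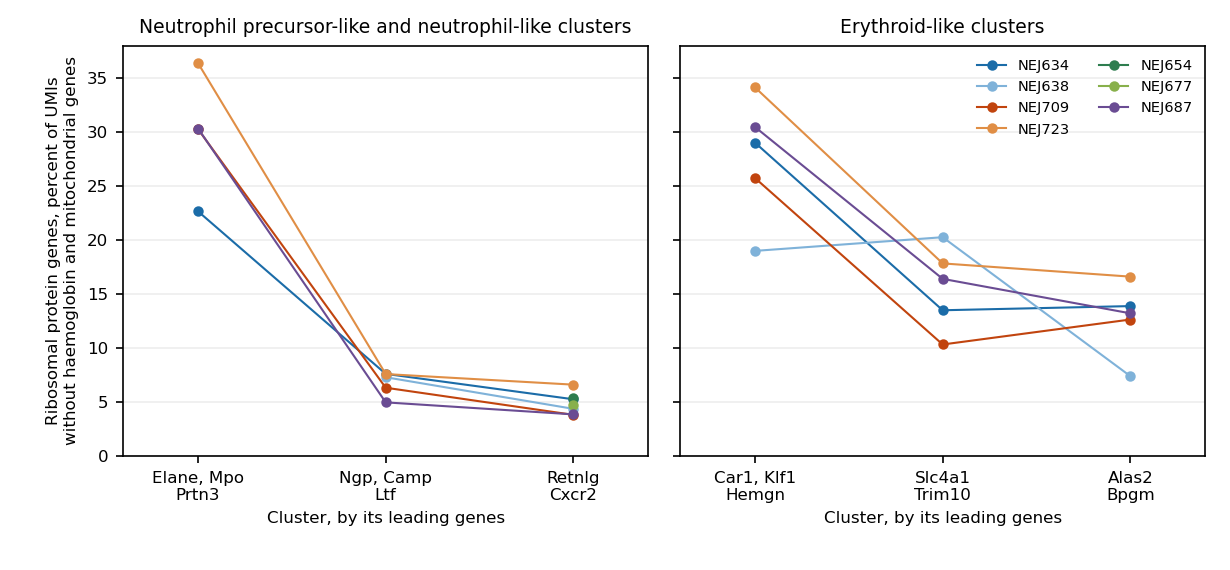
Ribosomal protein genes as a percentage of UMIs without haemoglobin and mitochondrially encoded genes in the 3 clusters of the neutrophil lineage (left) and the 3 of the erythroid lineage (right), named by their leading genes; each line is 1 library. Lines fall from left to right in the neutrophil lineage in every library that holds the clusters, and in the erythroid lineage NEJ638 is higher in the second cluster than in the first.

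Composition was examined next, as the percentage of the core UMIs that each core member supplied. This measure takes out the level of the whole set. For each member the log2 share in a class was set against the mean of the classes of the same library. A member was called shifted in a class when its median deviation was over 1.5-fold in size and had one sign in every library with the class. Of 1001 combinations of 77 members and 13 classes, 23 (20 members) were shifted, 10 upward and 13 downward. The median size of a deviation was 0.12 on the log2 scale, and 54 members varied by less than 1 between their extreme classes. The count was 89 with the ambient profile subtracted and 6 with stricter calling of cells. Under that calling T/NK-like cells were held by 7 libraries, and neutrophil-like cells beside them by 3, fewer than the 4 that a class needed. Shifts of neutrophil-like cells could therefore not be counted there.

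Neutrophil-like cells held 14 of the 23 shifts. Rps9, a small subunit protein at the site where decoding accuracy is set, supplied 3.51% of core UMIs in NEJ634, 3.54% in NEJ723, 4.01% in NEJ638, 4.97% in NEJ709, 5.196% in NEJ677, 5.46% in NEJ687 and 5.60% in NEJ654. In T/NK-like cells it supplied 1.11% to 1.37%. The neutrophil-like values lay above all of these, and the median deviation of Rps9 was 1.63 (3.10-fold), the largest of all combinations. Rps27 (1.10), Rps27a (1.02) and Rpl37 (0.76) were the other members with a raised share.

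The 10 members with a lowered share in neutrophil-like cells were Rpl10a (-1.003), Rpl3 (-0.97), Rpsa (-0.92), Rps20, Rpl12, Rps18, Rps19, Rpl32, Rps4x and Rpl36a. Rpl10a, which sits at the exit site of the ribosome and is part of a signature the study used, supplied 0.325% to 0.578% of core UMIs there and 0.696% to 1.15% in T/NK-like cells, with no overlap. These rest on few molecules in some libraries: Rpl10a had 40 UMIs in NEJ638 and 657 in NEJ723. Both kept their direction in the 7 alternatives that gave a value. With the ambient profile subtracted the deviation was -4.89 for Rpl10a and 2.31 for Rps9. That subtraction took the highest ambient fraction allowed and cut off negative counts. It can leave few UMIs of a member in these cells, so the sizes of these 2 values are not measures of the shift.

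Other classes had fewer shifts. In hepatocyte-lineage-like cells Rps27 was lowered (-0.80) and Rps2 (0.82) and Rps15 (0.70), both of the small subunit, were raised. Rps27 supplied 0.495% of core UMIs there in NEJ687, 1.69% in NEJ638 and a median of 0.996%, against a median of 2.16% in T/NK-like cells. It was lowered in erythroid-like (-0.62) and neutrophil precursor-like cells (-0.59) as well, so that it had opposite signs in neutrophil-like cells and in their precursors. Rpl31, of the large subunit, was raised in plasmacytoid dendritic-like cells (1.31), at 0.549% to 0.895% of core UMIs over 6 libraries and 0.182% to 0.266% in B-like cells. Rps6, the substrate of the S6 kinases, was raised in endothelial-like cells (0.64) and the stalk gene Rplp1 in macrophage-like cells (0.67). B-like, T/NK-like, monocyte-like, mesenchymal-like, conventional dendritic-like and basophil/mast-like cells had 0 shifts.

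**Figure D4:**
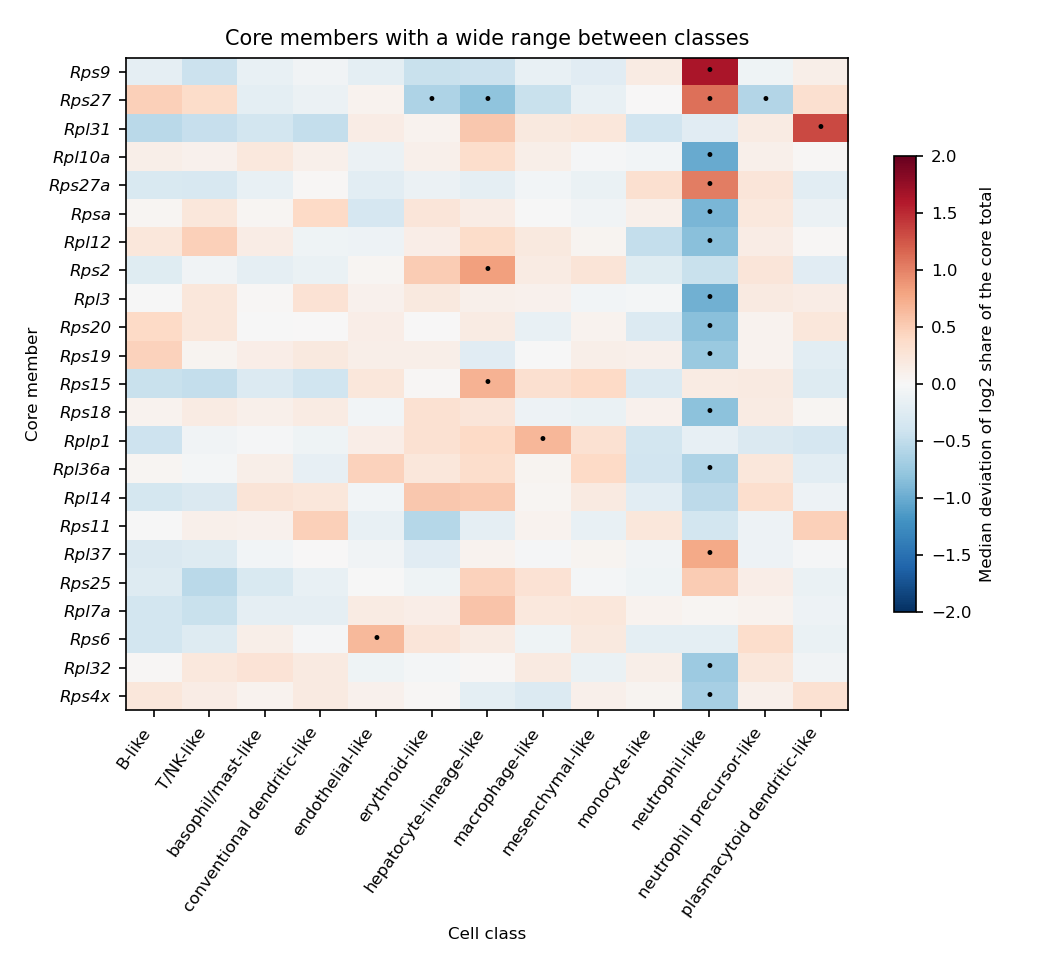
Median deviation of the log2 share of core UMIs (colour) for 23 core members with a wide range between classes, by cell class; dots mark shifted combinations. The neutrophil-like column holds the strongest colours, with Rps9 at 1.63 and Rpl10a at -1.003, and Rpl31 stands out in plasmacytoid dendritic-like cells at 1.31.

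Members with special roles followed the rest in most classes. The stalk genes had median levels of 2462 CPM (Rplp0), 2248 CPM (Rplp1) and 1428 CPM (Rplp2) over all cells. Rplp0, to which the other stalk proteins bind, ranged from 1181 CPM in NEJ638 to 5031 CPM in NEJ687. Rpl5 and Rpl11, which bind the 5S RNA and hold back Mdm2 when ribosome assembly is disturbed, had 458 CPM (331 to 717) and 2362 CPM (1121 to 2964), and neither was shifted in any of the 13 classes. The X-linked members were Rpl39 (2690 CPM), Rps4x (2318), Rpl10 (1002) and Rpl36a (817), and Rps4x and Rpl36a were shifted in 1 class each, neutrophil-like.

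Genes of Diamond-Blackfan anaemia, an inherited failure of red cell production caused by the loss of 1 copy of a ribosomal protein gene, were examined in erythroid-like cells. The list had 19 members. Their median deviation was 0.00, with 10 above 0, beside 0.06 and 45 of 77 above 0 for all core members. Rps26 (0.26) was among the highest, and the lowest were Rpl35a (-0.30) and Rps27 (-0.62), the single one shifted.

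Libraries differed in composition within a class. Rps29 supplied 1.58% of core UMIs in T/NK-like cells of NEJ687, 5.35% in those of NEJ638 and 2.49% to 3.94% in the other 5 libraries. The range between libraries in T/NK-like cells was 1.76 on the log2 scale for Rps29, 1.69 for Rps27, 1.60 for Rpl39, 1.45 for Rps28 and 1.40 for Rpl35, beside 0.58 for the median core member. For each of these 5, NEJ638 was highest in 12 or 13 of 13 classes and NEJ687 lowest in 11 or 12 of the 12 classes it held. All 5 have short coding sequences, so the 20 core members of shortest annotated coding length (at most 375 bases) were summed, a choice made after these values were seen. They supplied 22.9% of core UMIs in T/NK-like cells of NEJ687, 41.7% in NEJ638 and 29.3% to 35.1% in the other libraries. NEJ638 was highest in 13 of 13 classes and NEJ687 lowest in all 12 classes it held. The ambient profile showed the same ends, with 27.03% in NEJ687 and 40.1% in NEJ638. The sum holds the 5 members that prompted it. Without them, the other 15 supplied 18.2% of the UMIs of the remaining 72 core members in T/NK-like cells of NEJ687 and 29.2% in NEJ638. NEJ638 was again highest in 13 of 13 classes and NEJ687 lowest in all 12 that it held. The 20 longest (at least 633 bases) supplied 27.7% in NEJ687 and 17.5% in NEJ638 in T/NK-like cells. The difference between NEJ638 and NEJ687 thus ran through the classes and the ambient profile alike, and its source was not tested.

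The paralogs differed in how they were shared between classes. Rps27l, a p53-inducible paralog of Rps27, supplied 34.8% to 50.8% of the UMIs of the pair in hepatocyte-lineage-like cells (median 43.3%), against 1.52% to 6.66% in T/NK-like cells (2.40%) and a median of 2.28% in B-like cells. In single libraries the hepatocyte-lineage-like value was 37.5% in NEJ634, 35.8% in NEJ638, 34.8% in NEJ709, 50.8% in NEJ654, 49.2% in NEJ677 and 50.04% in NEJ687. All of these lay far above the T/NK-like values of the same libraries. T/NK-like and B-like cells had the lowest class medians. Medians of the other classes held by at least 4 libraries lay between, from 5.75% in neutrophil-like to 14.8% in macrophage-like cells. Cholangiocyte-like cells had 31.6% and 34.2% in 2 libraries. In NEJ687, where Rps27 was lowest, Rps27l supplied 31.1% of the pair over all cells and 33.1% in erythroid-like cells. Both genes moved: Rps27l had a median of 964 CPM in hepatocyte-lineage-like and 159 CPM in T/NK-like cells, and Rps27 had 1247 and 6639 CPM.

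Rpl22l1, a paralog that Rpl22 keeps low in some tissues, supplied 33.5% of its pair over all cells (24.6% to 42.1%). The highest class median was 45.4% in hepatocyte-lineage-like cells (38.5% to 64.0%) and the lowest 24.3% in conventional dendritic-like cells (17.2% to 31.6%). Rpl36al, an autosomal copy of the X-linked Rpl36a, supplied 46.5% over all cells (38.1% to 50.6%), with the highest class median in plasmacytoid dendritic-like cells (63.2%, 48.0% to 66.2%) and the lowest in erythroid-like cells (32.7%, 29.1% to 47.3%). Its 3′ end shares sequence with an overlapping annotated gene, so its count is uncertain.

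**Figure D5:**
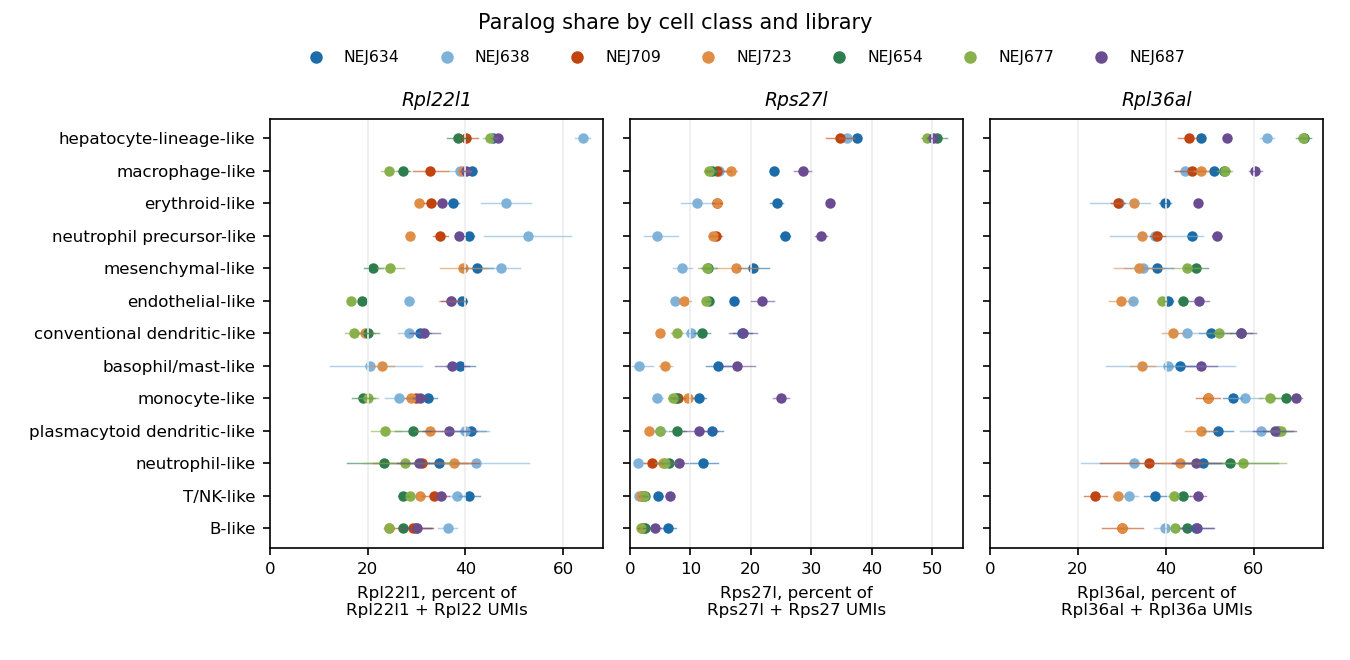
Share of the paralog in the UMIs of the paralog and its core gene, by cell class, for Rpl22l1, Rps27l and Rpl36al; each dot is 1 library and bars are exact 95% intervals. Rps27l reaches 34.8% to 50.8% in hepatocyte-lineage-like cells and stays at 1.52% to 6.66% in T/NK-like cells, while Rpl22l1 and Rpl36al overlap between most classes.

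The remaining paralogs were low. Rpl7l1, a factor of large subunit assembly, had 43.9 CPM over all cells (30.8 to 69.6), 78.9 CPM in hepatocyte-lineage-like and 28.0 CPM in T/NK-like cells. Rps27rt had 30.6 CPM, but its 3′ end is nearly that of Rps27, and it stayed at 1.02% to 1.66% of the pair in the medians of the 13 classes. Rpl39l, a testis-enriched paralog of Rpl39, had 199 UMIs in all, 84 of them in macrophage-like cells, where it made up a median of 0.164% of its pair. Rpl10l, another testis gene, had 0 UMIs in 7 libraries. Rps19bp1, which encodes a binding partner of Rps19 rather than a ribosomal protein, had 38.8 CPM (27.1 to 58.2) over all cells. Its class medians were highest in hepatocyte-lineage-like cells (70.6 CPM, 46.7 to 100.3) and plasmacytoid dendritic-like cells (68.8 CPM, 26.3 to 89.4).

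Rpl3l, a paralog of Rpl3 known from heart and skeletal muscle, had 545 UMIs in all. In neutrophil-like cells its level was 13.3 CPM in NEJ687, 14.03 in NEJ723, 14.3 in NEJ709 and in NEJ634 (8 UMIs there, exact Poisson interval 6.18 to 28.2), 38.6 in NEJ677, 50.2 in NEJ654 and 78.3 in NEJ638. In T/NK-like cells it had 2 UMIs and in B-like cells 9 UMIs over the 7 libraries. In NEJ709 the count of 0 in T/NK-like cells allowed up to 8.74 CPM and that in B-like cells up to 15.7 CPM, which both reach into the neutrophil-like interval (5.25 to 31.2), so the difference was not detectable at this depth there. The same held against B-like cells in NEJ634, where 0 UMIs allowed up to 11.95 CPM. It held against T/NK-like cells of NEJ634 too, where 1 UMI allowed up to 7.99 CPM. In NEJ687, 0 UMIs in B-like cells allowed up to 9.34 CPM, which reaches into the neutrophil-like interval there (8.24 to 20.3). Rpl3l lies on chromosome 17 from 24727820 to 24736143 on the plus strand, and Msrb1, a selenoprotein gene, starts 498 bases after it on the same strand. Msrb1 was highest in the same 2 classes, with a median of 2746 CPM in neutrophil-like, 1042 CPM in monocyte-like and 45.1 CPM in T/NK-like cells, and Rpl3l had 16.01 CPM in monocyte-like cells. Their levels did not run in parallel everywhere: macrophage-like cells had a median of 321 CPM of Msrb1 and 0.867 CPM of Rpl3l, and hepatocyte-lineage-like cells of NEJ677 had 862 CPM of Msrb1 and 0 UMIs of Rpl3l. Whether the Rpl3l UMIs come from Rpl3l transcripts was not tested.

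Some proteins of the ribosome have names outside the rule. Fau, which is made as a fusion with a ubiquitin-like protein, had 7140 CPM in T/NK-like and 4885 CPM in neutrophil-like cells (medians without haemoglobin and mitochondrial UMIs). Rack1, a scaffold on the small subunit, had 1170 and 136 CPM. Of the other translation genes, the elongation factor Eef1a1 had 4520 and 733 CPM, Tpt1 4134 and 1530 CPM, and the nucleolar protein Npm1 1626 and 114 CPM.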

How the data were processed

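The matrices that the authors deposited hold raw UMI counts for each gene in each barcode, without normalization and without a filter on cells. Their header names Cell Ranger 4 and the submitters' processing notes name Cell Ranger 6.0. The study's methods state that introns were counted. Which run made the files and the genome build are not given in the sources used here. Tissue was dissociated with collagenase and filtered through strainers.

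Cells were called by a percentile threshold (10 times below the 99th percentile among the 3000 barcodes richest in UMIs) and a test against the ambient profile (barcodes ranked 45000 to 90000, at most 20000 barcodes tested). Cells over 500 UMIs with at most 20% mitochondrial UMIs were kept, and the highest Scrublet doublet scores were removed at 0.8% per 1000 cells, because the caller's own threshold marked at most 0.0505% of cells. Leiden clustering (2000 variable genes, 40 components, 15 neighbours, resolution 1) left out ribosomal protein genes. A cluster was named from fixed markers when their mean log2 fold was at least 1.5 with a lead of 0.5 over the second class and 3 markers up. It stayed unnamed when over 90% of its cells came from 1 library and its profile followed the ambient profile (r of 0.95 or more), or when markers of another class led its top genes. These limits were set after the clusters had been seen. Classes of at least 20 cells were used.

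Shares are sums of UMIs with exact 95% Clopper-Pearson intervals, and levels have exact Poisson intervals. Both cover counting error only. The composition used a pseudocount of 1 UMI. Named genes were, by rule, the 5 highest and 5 lowest core members, the 10 of widest range between classes, the 5 of widest range between libraries, and the paralogs, stalk genes and other listed genes. The members and lists were chosen with earlier results of these data known. With 0 groups in the labels, no test between groups was made, and class pairs are counts of libraries. The steps recovered what was put into simulated data. No ambient UMIs or doublets were mixed into the simulated classes, so the effect of either on the classes here was not tested by them. Versions were scanpy 1.11.5, igraph 0.11.9, scikit-learn 1.9.0, scipy 1.17.1, numpy 2.4.6, pandas 2.3.3, matplotlib 3.10.9 and Python 3.11.15. Cells of the study that have no file here, and its spatial, bulk and screening data, were not analysed here. Some genes, and 1 alternative that adds genes to the set, are not reported here.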

Additional observations from a re-analysis of the deposited data

Results flagged for a closer look

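Genes named as ribosomal protein pseudogenes were outside the rule but are listed in the matrices, and 3 of them had more UMIs in every library than the 3 counts that a count of 0 allows. Rpl9-ps6 had a median of 12.9 CPM over the libraries, Rpl10-ps3 had 8.38 and Rpl36a-ps1 had 4.41. Despite their names, the annotation used here types all 3 as protein-coding. Their 3′ ends resemble those of Rpl9, Rpl10 and Rpl36a, and how the counting assigned such reads was not tested. The labels give the libraries no groups, so no library was set against a group for an outlying value.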

How the results depend on the processing

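Over 11 alternatives for 56 results, 362 of 441 values moved by less than the spread of their libraries or their interval and 79 moved further. As whole results 0 were counted as reversed, although the library counts of some class pairs changed, as given below. The share over all cells has intervals so narrow that nearly any choice moved it. In NEJ638 it was 11.2% with barcodes above the percentile threshold only, 11.4% with over 1000 UMIs and at most 10% mitochondrial, 11.5% with doublets kept, 14.3% without haemoglobin and mitochondrial UMIs, and 10.9% as a mean over cells. In NEJ723 it was 29.2%, 20.5%, 19.9%, 27.8% and 14.3% under the same choices, 20.5% with the ambient profile subtracted and 19.7% without barcodes of several libraries. With the percentile threshold only, T/NK-like exceeded neutrophil-like cells in 3 of the 3 libraries that held both and B-like exceeded neutrophil-like cells in 2 of 2. B-like exceeded T/NK-like cells in 0 libraries with that threshold or the stricter quality limits and in 2 at Leiden resolution 2, and erythroid-like exceeded T/NK-like cells in 1 with that threshold and in 2 of 7 at resolution 2. Endothelial-like exceeded hepatocyte-lineage-like cells in 5 of 5 libraries when names needed a lead of 1. The shifted combinations numbered 6 with the percentile threshold only and 89 with the ambient profile subtracted. With that threshold neutrophil-like cells fell below the 4 libraries that a class needed, so their shifts could not be among the 6. The causes were not tested. The ambient fraction that haemoglobin in T/NK-like cells allowed was 6.19% to 46.9% in 6 libraries and above 100% in NEJ638, where no subtraction was made. It is the highest fraction allowed, and negative counts were cut off. Values with the ambient profile subtracted, the 89 shifts among them, are therefore those of the strongest subtraction. Low counts limit members in neutrophil-like cells.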
